A study of Mus musculus with 72 samples.

Results

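Liver transcripts of conventional mice with and without the hepatic clock were compared in the early and middle part of the night. The comparison used 9 of the 72 libraries in the series, 4 from SPF LKO mice and 5 from SPF WT mice, sampled at ZT14 and ZT18 (zeitgeber time, hours after lights on). WT mice were Bmal1 fl/fl, and LKO mice were Bmal1 fl/fl with Albumin-Cre, so that both genotypes carried the loxP-flanked alleles. Only LKO mice carried Albumin-Cre, so the presence of Cre and the loss of Bmal1 cannot be told apart. All were adult C57BL/6 males kept under specific pathogen-free (SPF) conditions with their own gut microbes and food at all times. Kept libraries were SPF LKO ZT14 replicates 1 and 3, SPF LKO ZT18 replicates 2 and 3, SPF WT ZT14 replicates 1 and 2, and SPF WT ZT18 replicates 1, 2 and 3. The other 3 of the 12 SPF libraries at these hours, SPF LKO ZT14 replicate 2, SPF LKO ZT18 replicate 1 and SPF WT ZT14 replicate 3, were left out because their expression contradicted their labels. That choice was made from expression itself, so the separation of the kept libraries is partly fixed by it. Adjusted p-values of genes that follow the choice are too small. Counts of calls, some list medians and some single genes are also given with the 3 libraries. Other values describe the kept libraries only.

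BMAL1, listed by its gene symbol Arntl, pairs with CLOCK or NPAS2 and binds E-box elements to switch on its own repressors, the PER and CRY proteins. The same dimer drives the REV-ERB receptors (Nr1d1, Nr1d2), which hold Arntl and Npas2 down against the ROR activators. PAR bZIP factors (Dbp, Tef, Hlf) and their opponent Nfil3 pass the rhythm on through D-box elements. In liver the early night is the feeding phase of a mouse, when lipid, bile acid and drug metabolism are all timed by this loop. Albumin-Cre acts in hepatocytes, so endothelial and Kupffer cells of the organ keep an intact gene. Since the tissue was bulk liver, fewer cells of a type and less RNA per cell cannot be told apart.

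The kept libraries held 18337729 to 20671547 counts (median 19151270). Albumin (Alb) was the gene with the most counts in all 12 SPF libraries, with 8.75% to 9.74% of counts in kept WT libraries and 3.46% to 5.06% in kept LKO libraries. Genes of the mitochondrial chromosome took 6.38% to 7.61% in WT and 4.15% to 5.94% in LKO. Both shares therefore moved with genotype, and their part in the results was not tested. Of 6 hepatocyte markers in the table, all tested, 1 fell (Alb) and 5 did not pass, and their summed level was 112143 to 134320 CPM (counts per 1000000) in WT and 52968 to 79047 CPM in LKO. The lower sum in LKO went with Alb (log2 fold change -1.37), while the other 5 lay from -0.14 (Hnf4a) to 0.09 (Apoa1). Of the markers of other cells, none of 11 Kupffer cell, 8 endothelial or 9 stellate cell genes passed the test in either direction, nor did any of 5 lymphocyte, 3 neutrophil, 5 erythroid or 1 skeletal muscle genes tested, and Sox9 was the 1 of 6 cholangiocyte genes that rose. Kupffer cell markers summed to 293 to 403 CPM in WT and 323 to 401 in LKO. Pancreatic acinar markers stayed at 0.0902 to 0.379 CPM in the kept libraries, with 3 of 5 at 0 throughout.

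The 3 left-out libraries did not stand apart in the same way. To place them on a scale set by GF libraries alone, 706 genes called between GF LKO and GF WT livers at the same hours (GF, germ-free, 6 libraries each), all at least 2-fold changed, were averaged into a score on which the GF WT mean is -1 and the GF LKO mean is 1. Kept SPF WT libraries scored from -0.95 to -0.72 and kept SPF LKO libraries from 0.69 to 0.78. On the side of WT, too, were the libraries labelled LKO at ZT14 (replicate 2, -1.04) and at ZT18 (replicate 1, -0.70). For the library labelled WT at ZT14 (replicate 3) the score was -0.82, also on the side of WT, so its genotype label was not contradicted by the mean of these genes. It differed in single genes, genes of time and of microbial state among them, and why it differed was not tested. Nr1d1, which peaks by day, stood at 85.1 CPM beside 8.56 and 3.10 in the other WT libraries at ZT14, and Arntl at 2.12 CPM beside 15.8 and 19.5. Cyp3a11, a drug-metabolizing enzyme, stood at 372 CPM beside 5018 and 5486, which was also below GF WT livers at these hours (528 to 936 CPM). Genes that changed with genotype were mixed in this library. Ces1d stood at 521 CPM beside 1711 and 1834, toward LKO, while Loxl4 stood at 0.777 CPM beside 1.06 and 0.841, as in WT.

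**Figure D1:**
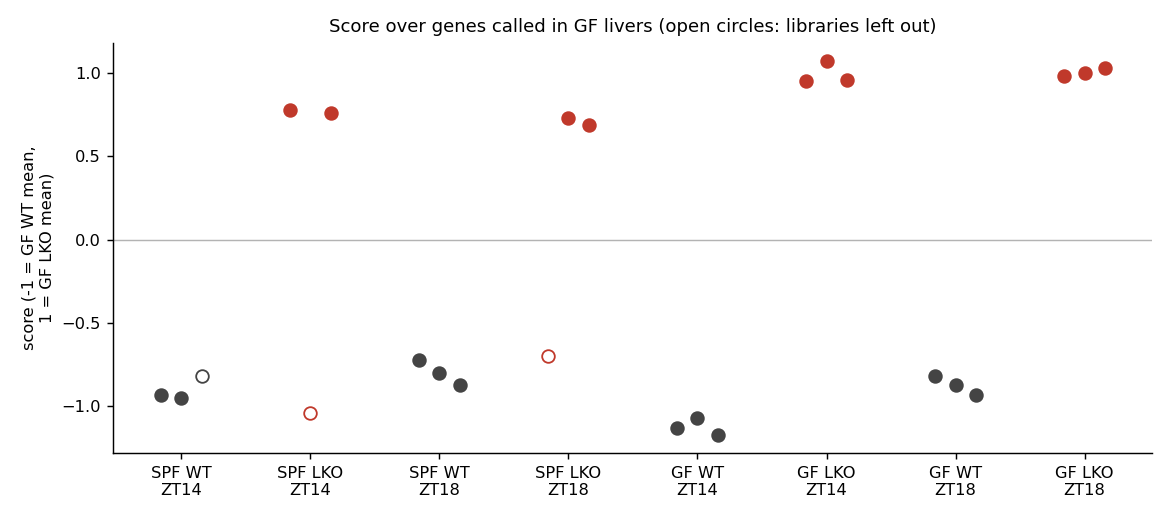
Score over 706 genes called in GF livers at ZT14 and ZT18 (y axis, no unit; -1 is the GF WT mean and 1 the GF LKO mean) for each SPF and GF library by group, with left-out libraries as open circles. Kept SPF LKO libraries lie between 0.69 and 0.78, and the 2 left-out libraries labelled LKO lie at -1.04 and -0.70, on the side of WT.

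Among 13660 genes tested in the 9 libraries, 1117 were called at a Benjamini-Hochberg adjusted p under 0.05 in edgeR's quasi-likelihood test, which is 8.18% of those tested. Of these, 518 were higher in LKO (3.79%) and 599 were lower (4.39%), and in 447 of them LKO and WT differed by at least 1 on the log2 scale. With all 12 libraries in the groups of their labels the same test called 0 of 13500 genes, although 1395 passed 0.05 before adjustment, and 157 passed in DESeq2 (133 higher, 24 lower). Of those 157 genes, 153 were among the 1117, all in the same direction. Of the 1108 called genes also tested in the 12 libraries, 1105 kept their direction, and their median log2 fold change in size went from 0.82 to 0.52. Putting back single libraries gave 129 calls with SPF LKO ZT14 replicate 2, 237 with SPF LKO ZT18 replicate 1 and 973 with SPF WT ZT14 replicate 3. The count of calls thus rested on leaving out the 2 libraries labelled LKO far more than on the one labelled WT.

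Among clock genes Nr1d2, Per3, Ciart, Bhlhe41 and Arntl were lower in LKO livers, and Npas2 and Cry1 were higher. In the lists of clock activators and RORs, clock repressors, and PAR bZIP factors with Nfil3, 3 of 6, 5 of 13 and 0 of 4 tested genes passed. Over all genes tested 8.18% passed. Values of Arntl and Npas2 in the kept libraries are a description, since these genes marked the libraries left out. The same holds for any other gene by which those libraries departed from their labels, and its adjusted p is too small.

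Arntl (chromosome 7, 113207465 to 113314126, GRCm38) had 15.8 and 19.5 CPM in WT at ZT14, 30.1, 26 and 19.7 in WT at ZT18, 12.4 and 10.4 in LKO at ZT14, and 11.5 and 11.9 in LKO at ZT18. Every kept LKO library lay below every kept WT library (log2 fold change -0.89 ± 0.15, SE), yet LKO livers still gave counts over this gene, and the table does not separate the deleted exon from the rest of it. Npas2 (chromosome 1, 39193731 to 39363236), the partner that can stand in for CLOCK, had 0.0532 and 0.158 CPM in WT at ZT14 and 2.28, 2.75 and 0.107 at ZT18, against 25, 24, 36.7 and 27.5 in the LKO libraries. The left-out libraries labelled LKO had 0.219 CPM at ZT14 and 1.82 at ZT18, within the range of WT. Clock, Rora and Arntl2 did not pass, with log2 differences of 0.23, -0.01 and 0.14.

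Among repressors, the REV-ERB gene Nr1d2 (chromosome 14, 18204054 to 18239127) had 60.4 and 56.2 CPM in WT at ZT14 and 24.3, 29.2 and 38 at ZT18. In LKO it had 15.3 and 10.5 CPM at ZT14 and 9.83 and 8.66 at ZT18, and no LKO library reached the lowest WT library. The log2 fold change was -1.93 ± 0.16 (SE, adjusted p = 1.08e-05, edgeR). Per3, a PER family member, had 22.6 and 19.8 CPM in WT at ZT14 and 11.2, 8.65 and 14.4 at ZT18, against 6.70, 4.44, 5.19 and 6.37 in LKO, again without overlap. Ciart, which encodes a repressor of the BMAL1 dimer, averaged 2.07 ± 1.49 CPM in WT and 0.365 ± 0.413 in LKO (SD), a log2 fold change of -2.82 ± 0.45 (SE), though WT and LKO libraries overlapped when ZT was ignored. Bhlhe41, at 1.44 CPM or less in every kept library, also fell, by 2.10 on the log2 scale. Cry1 went the other way, with 35.8 and 46.4 CPM in WT at ZT14 and 51.9, 57 and 40.3 at ZT18, against 61.5, 68.8, 85.8 and 80.7 in LKO (log2 fold change 0.71 ± 0.12, adjusted p = 0.00171, edgeR).

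Several well-known rhythmic genes did not pass at these hours. Nr1d1, the other REV-ERB gene, was at 8.56 and 3.10 CPM in WT at ZT14 and at 0.758 to 0.909 at ZT18, and at 0.493 to 3.42 in LKO (log2 fold change -0.76, adjusted p = 0.378, edgeR). Dbp had 1.41 to 7.66 CPM in WT and 1.95 to 3.43 in LKO. Per1 and Per2 gave log2 fold changes of -0.15 ± 0.46 and -0.25 ± 0.18 (SE). A p that misses the threshold does not show that these genes were alike in the 2 genotypes.

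**Figure D2:**
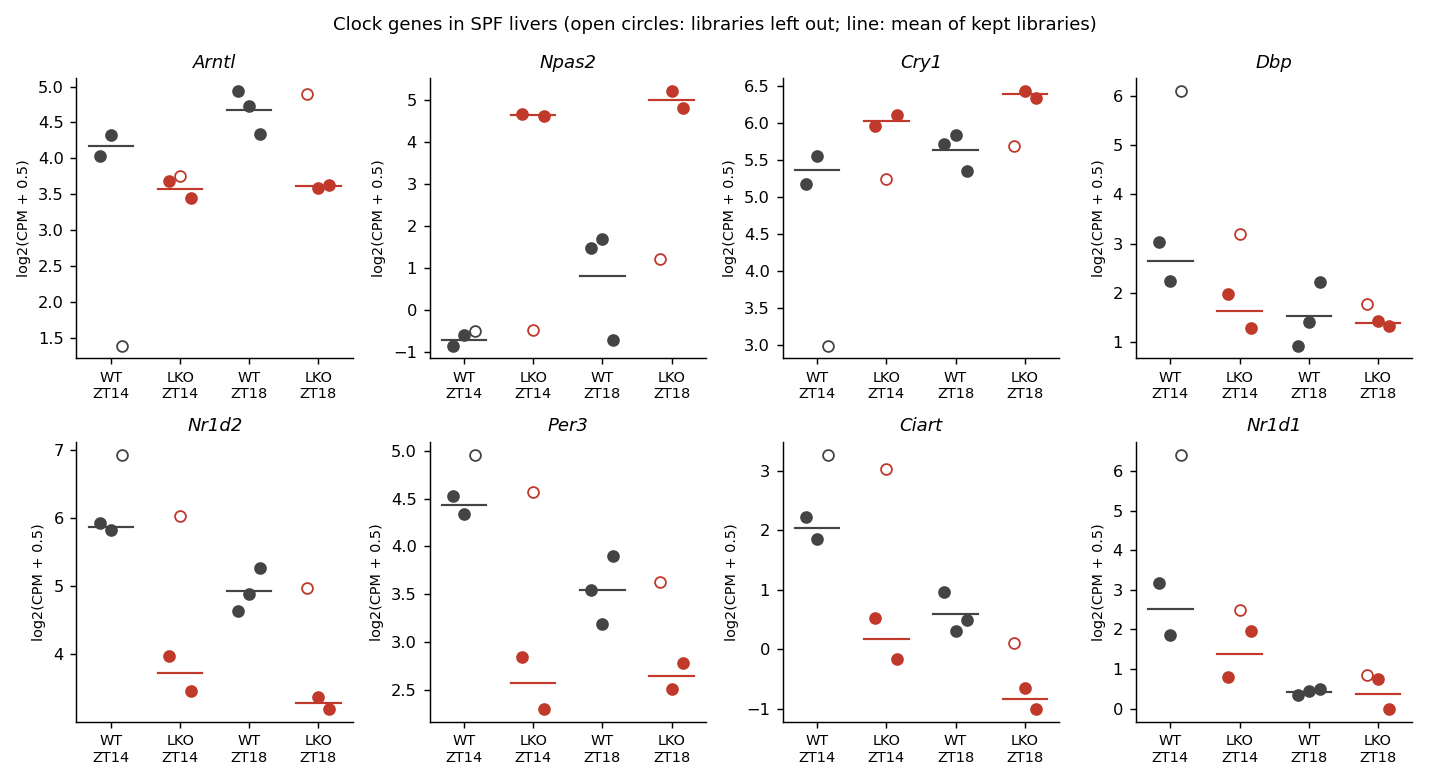
Level of 8 clock genes, as log2(CPM + 0.5), in each SPF library by genotype and ZT; filled circles are kept libraries, open circles the 3 left out, and lines the means of kept libraries. Npas2 and Cry1 lie higher and Nr1d2 and Per3 lower in every kept LKO library, and the open LKO circles of Nr1d2 lie at the height of WT.

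Promoter sequences are shown for repressors that passed the test and hold the letters of a clock element upstream of their start, since these are the genes through which the loop closes. RefSeq promoters of GRCm38.p6 were available for 25 of the 32 genes in the clock lists and the list of output genes. E-box letters (CACGTG, the same on both strands) were found in 5 of them (Per1, Cry1, Bhlhe41, Ciart and Tef) and D-box letters (TTATGTAA or TTATGCAA, either strand) in 2 (Per1 and Per3), within 250 bases before and 50 after the start. Each line below runs 5′ to 3′ on the strand of the gene, with the element in capitals.
Cry1, E-box, chr10:85185089-85185134, minus strand: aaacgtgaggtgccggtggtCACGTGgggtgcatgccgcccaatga
Ciart, E-box, chr3:95882319-95882364, minus strand: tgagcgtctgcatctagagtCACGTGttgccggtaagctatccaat
Bhlhe41, E-box, chr6:145865548-145865593, minus strand: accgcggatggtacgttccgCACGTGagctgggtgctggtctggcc
Per3, D-box, chr4:151044843-151044890, minus strand: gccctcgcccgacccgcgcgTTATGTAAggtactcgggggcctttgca
Per3, D-box, chr4:151044796-151044843, minus strand: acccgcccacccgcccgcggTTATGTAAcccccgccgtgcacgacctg
Ciart holds 3 such E-boxes in this window, the others at 58 and 44 bases before its start. Ciart and Bhlhe41 fell while Cry1 rose, so genes with the same letters moved both ways. E-box letters were in 7.24% of all 27025 promoters, in 10.2% of promoters of tested genes, in 11.4% of those of genes called lower and in 8.81% of those called higher. For D-box letters the shares were 1.74%, 1.19%, 4.23% and 1.81% in the same order. For the core of the ROR element (TAGGTCA or TGGGTCA, either strand) they were 6.45%, 5.15%, 6.24% and 6.99%. A match describes letters and is not a binding site.

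Of genes long linked to clock output, 8 of 9 were called lower and 0 higher, beside 4.39% of all genes tested called lower, with a median log2 fold change of -1.01, beside 0.005 over all genes tested. The list was chosen with earlier results of these data known, so its share is a description and not an independent test. In GF livers 7 of the 9 were lower, where 13.9% of all genes tested were called lower. Rgs16, a regulator of G protein signaling, had 10.1, 25.2, 13.9, 28 and 1.39 CPM in WT and at most 0.628 in LKO. Por, the electron donor of all microsomal P450 enzymes, had 375 and 517 CPM in WT at ZT14 and 213, 210 and 237 at ZT18, against 94.6, 131, 138 and 84.9 in LKO. Gys2, liver glycogen synthase, averaged 271 ± 57.8 CPM in WT and 108 ± 8.59 in LKO (SD), a log2 fold change of -1.33 ± 0.14 (SE, adjusted p = 5.37e-05, edgeR). Nampt, the rate-limiting enzyme of NAD salvage, averaged 171 ± 33.8 in WT and 87.3 ± 5.82 in LKO, and Wee1, a cell cycle kinase, 17 ± 6.16 and 8.01 ± 1.79. Every kept LKO library was below every WT library for Rgs16, Por, Gys2 and Nampt, and the groups overlapped for Wee1.

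Fatty acid oxidation genes fell or did not pass. Of 38 tested genes of mitochondrial and peroxisomal oxidation and other PPARA targets, 20 fell, 0 rose and 18 did not pass, with 35 of 38 estimates below 0. Over all genes tested 4.39% were called lower and 3.79% higher. The list's median log2 fold change was -0.53, against -0.34 in the 12 libraries and -0.76 in GF livers, where 34 of 38 fell, beside 13.9% of all genes tested.

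Aldh3a2 (chromosome 11, 61223417 to 61267464), which oxidizes long-chain fatty aldehydes, had 500 and 542 CPM in WT at ZT14 and 574, 587 and 477 at ZT18. In LKO it had 118 and 76.5 CPM at ZT14 and 96.9 and 125 at ZT18, so the groups lay far apart (log2 fold change -2.35 ± 0.15, adjusted p = 1.02e-06, edgeR). The left-out libraries labelled LKO had 432 and 542 CPM, and with all 12 libraries the log2 fold change was -1.16 (adjusted p = 0.4, edgeR). Ppara itself, the fasting-sensing nuclear receptor, had 101, 153, 101, 106 and 105 CPM in WT and 48.4, 75.2, 67.8 and 57.2 in LKO (log2 fold change -0.87 ± 0.15, adjusted p = 0.00244, edgeR). Cpt1a, the carnitine transferase that admits fatty acids to mitochondria, fell less, from 317 ± 83.8 to 225 ± 20.4 CPM (SD), and WT and LKO libraries overlapped. Acot3, an acyl-CoA thioesterase, had the largest decrease of the list, with 7.31 to 12.4 CPM in WT and 0.0488 to 0.676 in LKO. The left-out libraries labelled LKO had 16.7 and 10.7 CPM of Acot3, and the one labelled WT had 1.76. With all 12 libraries the log2 fold change of Acot3 was -0.92 (adjusted p = 0.786, edgeR). The related Acot4 was at 63 to 85.2 CPM in WT and 16.8 to 26.9 in LKO. Peroxisomal Acaa1b and Decr2 had log2 fold changes of -1.31 and -0.75. Cyp4a14, a fatty acid hydroxylase, was at 40.2 to 98.3 CPM in 3 LKO libraries and at 359 in SPF LKO ZT18 replicate 3, against 421 to 798 in WT. Cyp4a and Acot genes have near-identical copies, so reads may have been split or lost among them. Fabp1, the abundant fatty acid carrier, averaged 5664 ± 1325 CPM in WT and 3203 ± 732 in LKO.

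Part of the genes of fatty acid synthesis fell. In the list of de novo lipogenesis 8 of 19 tested genes were lower, 1 was higher and 10 did not pass, with a median log2 fold change of -0.56 (-0.37 in the 12 libraries, -0.65 in GF livers). Lower calls made up 4.39% of all genes tested and higher calls 3.79%. Acacb, the acetyl-CoA carboxylase of the mitochondrial surface, had 45.8 and 51.2 CPM in WT at ZT14 and 109, 88.7 and 100 at ZT18, against 11 and 11.8 in LKO at ZT14 and 38.4 and 27.6 at ZT18. It was lower in LKO at either hour and rose from ZT14 to ZT18 in LKO (log2 difference 1.53 ± 0.18, adjusted p = 0.0459, edgeR), the only gene that edgeR called between the 2 hours in that genotype, where DESeq2 called 58. With any one of the 3 left-out libraries put back, edgeR called 0. Thrsp, a lipogenic protein induced by feeding, had 694 to 1998 CPM in WT and 364 to 428 in LKO. Me1, a source of NADPH, fell by 1.08 on the log2 scale, and the desaturases Scd1, Fads1 and Fads2 had log2 fold changes of -1.05, -0.73 and -0.97. Scd2, a desaturase low in adult liver, was the member that rose, with 5.90 to 9.36 CPM in WT and 10.3 to 26 in LKO.

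Lipoprotein lipase (Lpl, chromosome 8, 68880491 to 68907448), normally silenced in adult hepatocytes, showed one of the largest increases. It had 18.7, 16.9, 21.7, 24.4 and 35.3 CPM in WT, and 906, 720, 558 and 781 CPM in LKO. The log2 fold change was 5.03 ± 0.22 (SE, adjusted p = 7.04e-08, edgeR), and the left-out libraries labelled LKO had 20.7 and 34.1 CPM. With all 12 libraries the log2 fold change was 4.15 (adjusted p = 0.16, edgeR). Hepatic lipase (Lipc) rose from 173 ± 15.9 to 330 ± 27.7 CPM (SD). Across triglyceride synthesis and lipases 2 of 20 tested genes rose and 5 fell (median log2 fold change -0.34), among them Mgll, which cleaves monoglycerides, and Cidec, a lipid droplet protein, at log2 fold changes of -0.71 and -1.09. The share called was 35% of this list, beside 8.18% of all genes tested. The scavenger receptor Cd36 and the acyltransferase Gpam fell by 0.71 and 0.54 on the log2 scale.

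**Figure D3:**
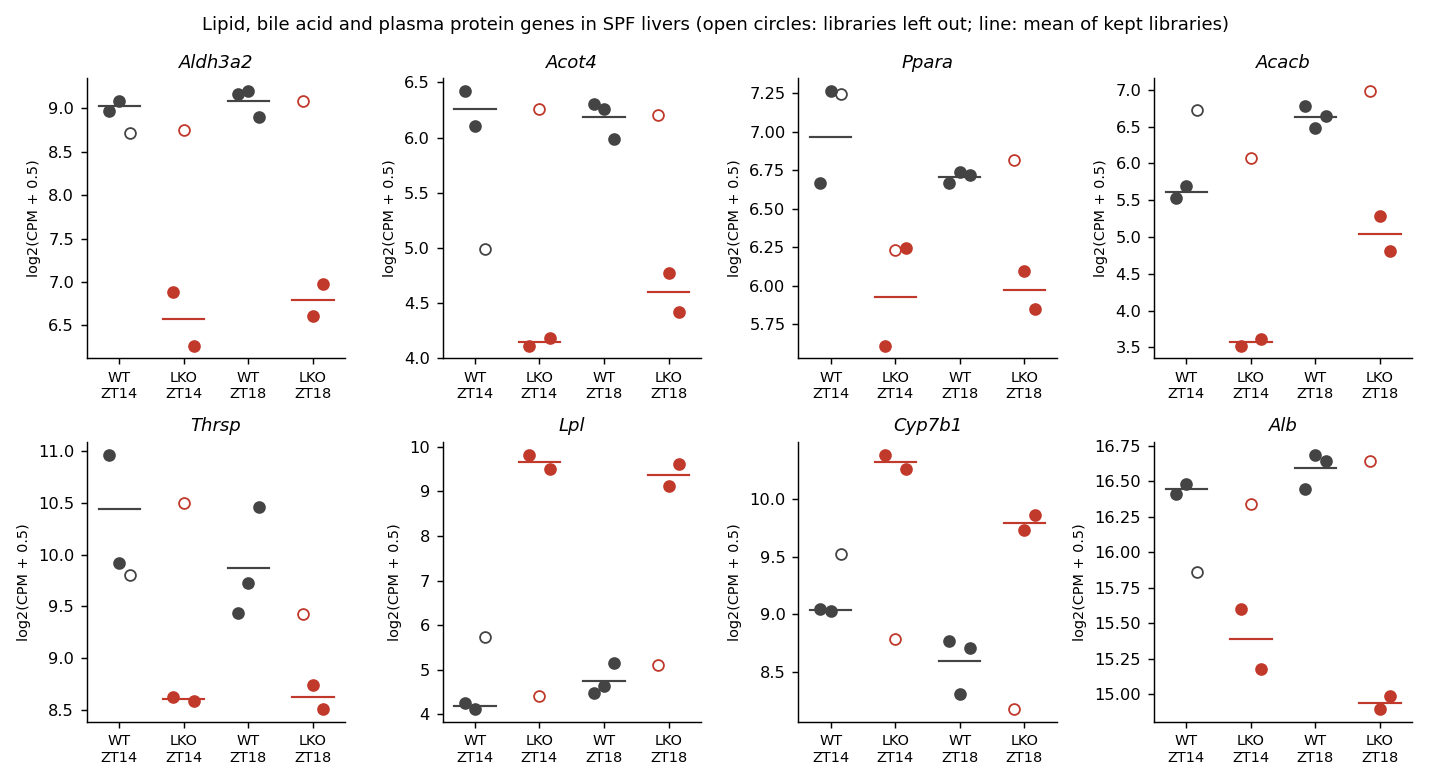
Level of 8 genes of lipid, bile acid and plasma protein metabolism, as log2(CPM + 0.5), in each SPF library by genotype and ZT; filled circles are kept libraries, open circles those left out, and lines the means of kept libraries. Lpl and Cyp7b1 are higher and the other 6 lower in every kept LKO library, and Acacb is also higher at ZT18 than at ZT14.

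Bile acid and sterol genes split. Of 20 tested genes of bile acid synthesis and transport 5 rose and 1 fell, or 30% called beside 8.18% of all genes tested. Cyp7b1, the hydroxylase of the alternative pathway, had 528 and 522 CPM in WT at ZT14 and 436, 316 and 418 at ZT18, against 1337, 1225, 848 and 930 in LKO (log2 fold change 1.24 ± 0.11, adjusted p = 1.68e-05, edgeR). Slco1a4, an uptake transporter, was at 105 to 112 CPM in WT and 159 to 213 in LKO, and the sterol exporters Abcg5 and Abcg8 had log2 fold changes of 0.79 and 0.91. Akr1d1, the reductase that shapes the bile acid ring, fell from 391 ± 60.5 to 200 ± 30.8 CPM (SD). Of 25 cholesterol genes 3 rose (Hmgcs1, Mvk and Insig2, each with overlapping libraries) and 0 fell, or 12% called beside the same 8.18%. In the 12 libraries Hmgcs1 had a log2 difference of -0.05, and Mvk had -0.04 with SPF WT ZT14 replicate 3 put back, so their direction depended on those libraries.

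Among glucose genes, 25% of the uptake and glycolysis list, 14.3% of gluconeogenesis and 15.4% of glycogen metabolism were called, beside 8.18% of all genes tested. Gluconeogenesis had 1 gene higher (Got1) and 1 lower (Gpt2) of 14 tested, both transaminases. Pck1, the rate-limiting enzyme, had 1672, 2579, 2587, 3092 and 461 CPM in WT and 1391, 1539, 2738 and 1987 in LKO, with SPF WT ZT18 replicate 3 the lowest of all. Its log2 fold change was -0.12 ± 0.40 (SE), and Pck2 and Fbp1 gave -0.43 ± 0.19 and -0.31 ± 0.10, none passing. Of 20 genes of glucose uptake and glycolysis 4 fell and 1 rose. Slc2a2, the hepatic glucose transporter, had 318 to 495 CPM in WT and 225 to 270 in LKO, and the glycolytic enolase Eno1 79.1 to 102 in WT and 55.1 to 67.2 in LKO, neither with overlap. Gckr, which restrains glucokinase, rose by a log2 fold change of 0.61. In glycogen metabolism Gys2 and the branching enzyme Gbe1 fell, 2 of 13 tested, while in NAD metabolism Nampt, Nmrk1 and Naprt fell, 3 of 12 (25%).

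Genes of drug and foreign-compound metabolism changed in both directions, 5 of 28 tested higher and 6 lower. The share called was 39.3%, beside 8.18% of all genes tested. Gstm3, a glutathione transferase, had 12.4 to 39.9 CPM in WT and 207 to 332 in LKO, and Cyp2c55 had 5.47 to 20.1 and 102 to 179 (log2 fold changes 3.5 ± 0.19 and 3.87 ± 0.31, SE). Cyp2a5, which oxidizes coumarin and nicotine, had 338 to 566 CPM in WT and 52.6 to 95.1 in LKO. Ces1d, a carboxylesterase, fell from 1974 ± 323 to 384 ± 84.4 CPM (SD). Over all 12 libraries the log2 fold changes of Cyp2a5 and Ces1d were -0.93 and -0.83 (adjusted p = 0.639 and 0.624, edgeR). The receptor CAR (Nr1i3) fell by 1.01 on the log2 scale while its classical target Cyp2b10 had a log2 fold change of 1.24. P450, carboxylesterase and glutathione transferase genes lie in clusters of near copies, which makes single values uncertain.

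Of 13 male-biased liver genes 3 rose (Elovl3, Cyp7b1 and Hsd3b5) and 3 fell (Cyp4a12a, Mup11 and Mup17). Of 17 female-biased genes only 5 passed the filter on low counts and were tested. Among these 5, Sult1e1, the estrogen sulfotransferase, rose from 0.266 to 0.736 CPM in WT to 6.10 to 26.9 in LKO, and Cyp17a1 and Abcd2 fell. The growth hormone and IGF axis had 1 of 15 called, the prolactin receptor Prlr, at 67.3 to 134 CPM in WT and 181 to 224 in LKO. Amino acid catabolism and the urea cycle had 3 of 29 higher (Kynu, Oat and Aadat) and 1 lower (Asl, of the urea cycle). Shares called were 46.2% of male-biased, 60% of the 5 tested female-biased, 6.67% of growth hormone axis and 13.8% of amino acid genes. Over all genes tested the share was 8.18%.

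Stress and defense lists differed in their share of calls, beside 8.18% of all genes tested. The share was 38.9% of acute phase genes, 28.6% of heat shock and cold-inducible genes and 4% of endoplasmic reticulum stress genes. Acute phase proteins had 4 of 18 higher (Apcs, Itih3, Cp and Fgb) and 3 lower (Saa1, Saa2 and Orm3). Saa1 and Saa2 reversed to log2 differences of 0.64 and 0.66 in the 12 libraries, where SPF LKO ZT14 replicate 2 alone had 445 and 208 CPM. Heat shock and cold-inducible genes had 1 of 14 higher (Hspa1a) and 3 lower, and endoplasmic reticulum stress genes 0 of 25 higher and 1 lower (Asns). Interferon-stimulated genes had 2 of 22 higher (Usp18 and Rsad2), and cell cycle genes 0 of 17. Cytosolic ribosomal protein genes had 3 of 80 called, all higher, a share no larger than the 3.79% of all genes tested, and 77 of 80 estimates were above 0 with a median of 0.25. In GF livers 49 of 79 were called, all higher, where 13.1% of all genes tested were.

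**Figure D4:**
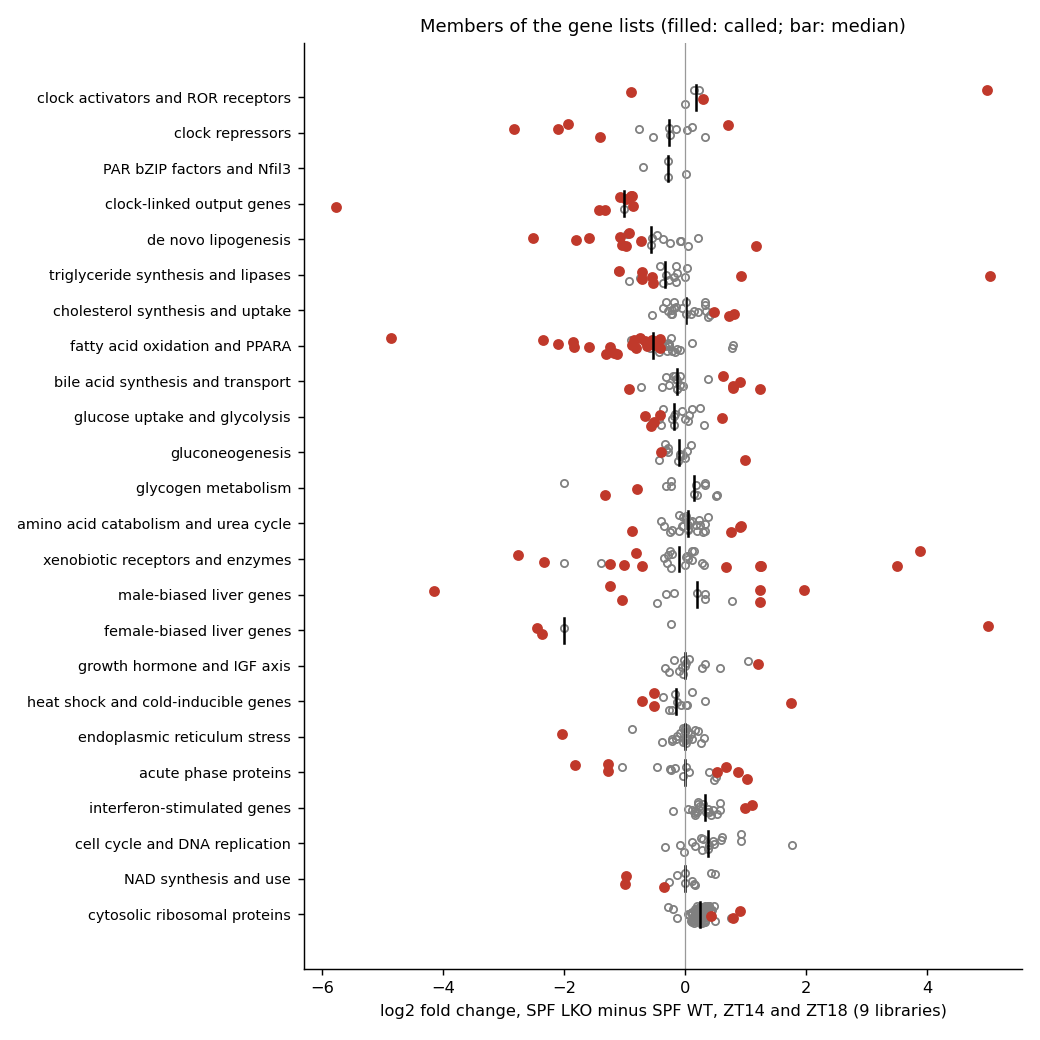
Log2 fold change between SPF LKO and SPF WT livers at ZT14 and ZT18 (x axis) of each tested member of 24 gene lists (rows); filled circles are called genes, open circles those that did not pass, and bars the medians. Fatty acid oxidation and clock-linked output genes lie mostly to the left, with medians of -0.53 and -1.01.

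The largest changes included members of these lists and genes outside them. Of the genes tested, 667 (4.88%) had every LKO library above every WT library and 713 (5.22%) had every one below. Among called genes of that kind with a log2 mean CPM of at least 1, increases were led by 4930459C07Rik, Moxd1, Ntrk2, Tox2 and Loxl4. 4930459C07Rik had 0 to 0.115 CPM in WT and 10.2 to 12.6 in LKO. Loxl4, a lysyl oxidase that cross-links matrix, had 0.841 to 2.38 and 40.4 to 50.7, and Ntrk2, the receptor for brain-derived neurotrophic factor, 0.266 to 1.95 and 46.3 to 84.6. Moxd1, a monooxygenase, was less even, with 114, 207, 136 and 10.5 CPM in LKO, 0.0535 to 4.13 in kept WT libraries and 125 in the left-out SPF WT ZT14 replicate 3. Decreases were led by Gm32468, Rgs16, Acot3, Mme and Nat8. Gm32468 had 2.50 to 15.5 CPM in WT and no count in 3 of 4 LKO libraries. Mme, the membrane peptidase neprilysin, had 83.2, 101, 147, 113 and 126 CPM in WT and 4.41, 2.10, 3.56 and 6.73 in LKO (log2 fold change -4.72 ± 0.23, adjusted p = 1.39e-07, edgeR). With all 12 libraries its log2 fold change was -1.71 (adjusted p = 0.498, edgeR). Col27a1, a fibrillar collagen, had 69.8 to 111 CPM in WT and 4.39 to 8.52 in LKO. The left-out libraries labelled LKO had 118 and 82.2 CPM of Col27a1. Over all 12 libraries its log2 fold change was -1.14 (adjusted p = 0.643, edgeR). With the 12 libraries 43 of the same 13660 genes showed no overlap, or 0.315%.

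Alb itself, at 86898 to 105510 CPM in WT and 30524 to 49635 in LKO, had a log2 fold change of -1.37 ± 0.17 (SE, adjusted p = 0.000198, edgeR), while GF WT livers had 100823 to 122948 CPM and GF LKO livers 28578 to 43509. The other 5 hepatocyte markers did not pass.

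Taken by hour, 519 genes (3.8%) were called at ZT14 and 465 (3.4%) at ZT18, and 309 were called at both, all in the same direction. All 1117 genes of the joint comparison had the same sign at either hour. These counts rested on few libraries. Without any one of the 4 libraries of ZT14 the count at ZT14 was 262 (SPF WT replicate 1), 274 (SPF WT replicate 2), 270 (SPF LKO replicate 1) or 332 (SPF LKO replicate 3), and without SPF LKO ZT18 replicate 2 or 3 the count at ZT18 was 188 or 230. The difference of the genotype effect between ZT18 and ZT14 was called for 0 genes by edgeR and 3 by DESeq2, with 509 genes at an unadjusted p under 0.05 by edgeR. In simulated data edgeR found 11 of 200 such differences of 2-fold, so a gene that is called at 1 hour alone is not shown to differ between the hours. Per3, for example, had log2 fold changes of -1.92 at ZT14 and -0.98 at ZT18, and Elovl3 2.80 and 1.23. In WT, edgeR called 4 genes from ZT14 to ZT18, all higher at ZT18 and named after their values were seen, while DESeq2 called 121. Without SPF WT ZT14 replicate 1 edgeR called 0. They were the water channel Aqp8 (38.2 to 38.5 CPM, then 148 to 150.0), 1810008I18Rik, and Pmvk and Hmgcs1 of the mevalonate pathway (25.9 to 32.2, then 67.2 to 83.8, and 62.7 to 80.9, then 194 to 348).

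A comparison of the same genotypes in GF mice used 12 libraries at ZT14 and ZT18, none of which entered the SPF comparison. There 3537 of 13095 genes were called (27%), 1713 higher (13.1%) and 1824 lower (13.9%). Of 1087 SPF calls tested in GF livers, 1000 (92.0%) were also called there in the same direction, 0 were called in the opposite direction, and 99.5% had the same sign, beside 75.5% of all 13013 genes tested in both. Those 1000 genes were 28.5% of the 3511 GF calls. Across the 13013 genes the log2 fold changes had a Pearson r of 0.854, which describes genes in the same livers that are not independent of each other. Of the 3511 GF calls 96.4% had the same sign in the 9 SPF libraries, and of the 3500 tested in the 12 SPF libraries 94.4% did.

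**Figure D5:**
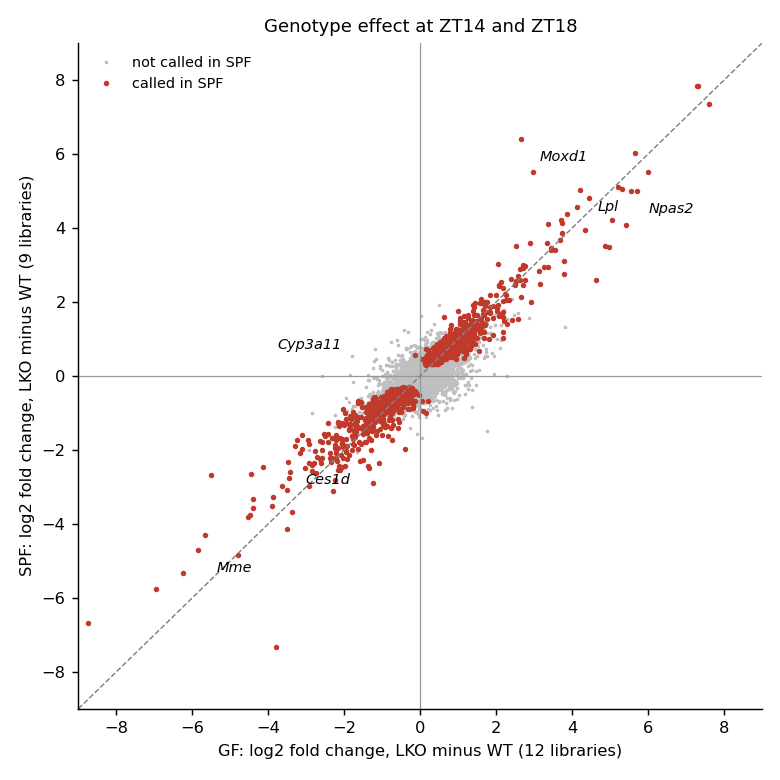
Log2 fold change between LKO and WT livers at ZT14 and ZT18 in GF mice (x axis, 12 libraries) and in SPF mice (y axis, 9 libraries), 1 point per gene; red points are called in SPF mice, and the dashed line marks equal effects. Red points lie in the lower left and upper right for 99.5% of genes, and Cyp3a11 sits near 0 on the SPF axis.

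The genotype effect differed between SPF and GF mice for 3 of 13922 genes (0.0215%). This count became 0 with a replicate block, 1 with the 12 libraries or with SPF WT ZT14 replicate 3 or SPF LKO ZT14 replicate 2 put back, and 1 without SPF WT ZT14 replicate 1, SPF WT ZT14 replicate 2 or SPF LKO ZT18 replicate 3. Cyp3a11 and Ces1d are also genes by which SPF WT ZT14 replicate 3 stood apart (Ces1d at 521 CPM beside 1711 to 2534 in kept WT libraries). Their SPF WT level in this test therefore rested in part on leaving that library out. Cyp3a11 had 5018, 5486, 5234, 6887 and 6800 CPM in SPF WT and 7161, 5353, 5201 and 6098 in SPF LKO, a log2 difference of 0.03 ± 0.15 (SE). In GF livers it had 528 to 936 CPM in WT and 137 to 263 in LKO (log2 fold change -1.86 ± 0.18), and the difference of the effects was 1.88 ± 0.26 (SE, adjusted p = 0.00458, edgeR). The carboxylesterases Ces1d and Ces1f fell in both settings, with log2 fold changes of -2.33 and -0.73 in SPF and -3.49 and -1.64 in GF mice (adjusted p of the difference 0.0344 and 0.017, edgeR).

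Against the other 4 ZT in SPF mice (24 libraries), the genotype effect at ZT14 and ZT18 differed for 4 of 14706 genes (0.0272%). The estrogen receptor gene Esr1 was among them, with 62.9 and 47.6 CPM in WT at ZT14 and ZT18, 15.5 to 30.3 at other hours and 13.1 to 16.8 in LKO at all 6. Paqr9, a membrane receptor family member, and Hectd2os, an antisense transcript whose reads cannot be told from those of its partner, also passed, with differences of -0.72 and 1.25. No gene passed this test with a replicate block, with the 12 libraries, with SPF WT ZT14 replicate 3 put back, or without any one of SPF WT ZT14 replicate 2, SPF LKO ZT14 replicate 1, SPF LKO ZT14 replicate 3 and SPF LKO ZT18 replicate 3.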

How the data were processed

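Liver RNA was sequenced from single ends with a stranded mRNA kit. The deposited values are counts of reads per gene, which the authors made with STAR 2.6.1b on mm10 (GRCm38) and featureCounts 2.0.0 on exons of Ensembl release 97, per the file headers without use of strand and without reads mapping to several places or genes. Overlapping and antisense genes and near-identical copies are therefore uncertain. Libraries were grouped by their labels, and nothing in the labels says more of replicates than that they are separate livers. Members and gene lists were chosen with earlier results of these data known, and some members are counted but not reported here by name.

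From the counts, edgeR 4.0.16 (R 4.3.3) gave TMM factors, a filter on low counts by genotype and ZT, and its quasi-likelihood test with Benjamini-Hochberg adjustment at 0.05, with ZT as a factor. SE is the log2 fold change divided by the square root of F. CPM are counts per 1000000 scaled by TMM factors over the 72 libraries, and intervals of counting were not computed. Named genes were the clock genes, 8 genes the study names, the 10 largest increases and 10 largest decreases among called genes without overlap and with a log2 mean CPM of at least 1, up to 4 called members per list, and up to 5 genes per test of a difference. DESeq2 1.42.0 was the second test of counts, and other scaling, no filter, a threshold on fold change, left-out libraries and a replicate block as alternatives. Of 55573 genes, 55394 matched a symbol, and 22224 had no count. On simulated data with 200 genes changed 2-fold in the 9 libraries, edgeR recovered 136 with 9 other genes called, and for the difference between SPF and GF mice 131 with 7 others.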

Additional observations from a re-analysis of the deposited data

Results flagged for a closer look

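With the 9 kept SPF libraries the genotype effect differed between settings by a test of the difference itself for several genes. These calls depended on the processing. With a replicate block 0 genes passed either test. With all 12 SPF libraries 1 gene passed between SPF and GF mice and 0 against the other 4 ZT. Cyp3a11 and Ces1d are also genes by which left-out SPF WT ZT14 replicate 3 stood apart. Between SPF and GF mice the log2 differences were 1.88 for Cyp3a11, 0.90 for Ces1f and 1.15 for Ces1d. Between ZT14 with ZT18 and the other 4 ZT they were -1.40 for Esr1, -0.72 for Paqr9 and 1.25 for Hectd2os. Single libraries stood apart from their group, with both hours pooled, in 8 of 214 pairs of gene and group. That is no more than chance gives, about 1 in 20, so these values are a description only. SPF WT ZT18 replicate 3 had 5.40 CPM of Per1 beside 27.5 to 39.5, and 101 CPM of Gckr beside 140.0 to 160.0. SPF WT ZT18 replicate 1 had 134 CPM of Prlr beside 67.3 to 80.7, SPF WT ZT18 replicate 2 had 201 CPM of Lipc beside 163 to 171, and SPF WT ZT14 replicate 2 had 153 CPM of Ppara beside 101 to 106. In LKO, SPF LKO ZT14 replicate 3 had 2.98 CPM of Cyp17a1 beside 1.71 to 1.82, and SPF LKO ZT18 replicate 3 had 3.14 CPM of Hspa1a beside 5.64 to 6.07 and 0.224 CPM of Gm32468 beside 0.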

How the results depend on the processing

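The count of 1117 became 447 at a log2 fold change of at least 1, 682 with a replicate block, 0 with all 12 libraries, 129 and 237 with SPF LKO ZT14 replicate 2 or SPF LKO ZT18 replicate 1 put back, and 157 by DESeq2 on the 12 libraries (chosen after seeing the data). The count at ZT14 (519) became 1027 without a filter, 273 with the block, 0 with the 12 or with SPF LKO ZT14 replicate 2, and 29 with SPF LKO ZT18 replicate 1. The count at ZT18 (465) became 296 at that fold, 913 without a filter, 0 with the 12 or with SPF LKO ZT14 replicate 2, and 1 with SPF LKO ZT18 replicate 1. The difference between hours (0) was 3 by DESeq2, 79 without a filter and 3 with the block. From ZT14 to ZT18, WT (4) gave 121 by DESeq2, 278 without a filter, 2 with SPF WT ZT14 replicate 3 and 0 with SPF LKO ZT14 replicate 2 or the 12, and LKO (1) gave 58, 263 and 0 with any library put back. GF calls (3537) became 706 at that fold. The difference between SPF and GF (3) became 14 by DESeq2, 147 without a filter, 0 with the block, and 1 with the 12, SPF WT ZT14 replicate 3 or SPF LKO ZT14 replicate 2. That against the other 4 ZT (4) became 29, 250, 0 with the block, 0 with the 12 or SPF WT ZT14 replicate 3, and 1 with either LKO library. The cause was not tested.

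Leaving out 1 library gave 835 to 1085 calls, 262 to 581 at ZT14, 188 to 451 at ZT18, 0 to 2 between hours, 0 to 13 and 0 to 2 over time in WT and LKO, 3092 to 3420 in GF mice, 1 to 7 between SPF and GF and 0 to 4 against the other ZT. A group left with 1 library is assumed to vary like the others. Of 90 named genes called, 73 were called in every such fit, 88 by DESeq2, and 87 had the same direction in the 12 libraries. Reversals were Saa1 (0.64), Saa2 (0.66) and Hmgcs1 (-0.05, -0.04 by DESeq2) in the 12, Saa1 (0.55) and Saa2 (0.47) with SPF LKO ZT14 replicate 2, and Mvk (-0.04) with SPF WT ZT14 replicate 3. Correlations between deviations of same-numbered pairs were 0.215, -0.097 and 0.154. They cannot decide whether replicate numbers pair libraries, since in a group of 2 libraries the deviations mirror each other. A block could not be fitted for changes over time within a genotype.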
